A study of Mus musculus with 6 samples.

Results

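Complement is a system of plasma and membrane proteins that tags particles and cells for uptake and lysis. C1q, built from A, B and C chains, starts the classical pathway, C4 and C2 carry it on, and C3 is the hub where all pathways meet. Factor B and properdin serve the alternative pathway, and the fragments C3a and C5a act on the receptors C3aR and C5aR1. Macrophages and microglia are the main source of C1q in the brain, where C1q and C3 are known for tagging synapses and debris.

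The genes followed here were 9 of the 35598 gene identifiers in each deposited table: C1qa, C1qb and C1qc, which encode the C1q chains; C3, C4b, Cfb (factor B) and Cfp (properdin); and the receptor genes C3ar1 and C5ar1. They were taken by symbol from the mouse GENCODE M21 annotation, and all 9 were found. The RNA came from CAMs, macrophages associated with the central nervous system that sit mainly at its borders, of male C57BL/6 mice. They were sorted from brains as CD3-CD11b+CD45+CD206+ cells, from mice aged 2 months (young, 3 libraries) or 18 months (aged, 3 libraries). All mice were of 1 strain, and the labels name no transgene, treatment or stroke group. Whether a library is 1 animal or a pool, and whether replicates are different animals, is not in the labels. The p-values therefore reflect library-to-library spread, part of which may be technical.

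The libraries held 26605079 to 33306121 counts. CAM markers were present throughout: Mrc1, which encodes the sorted CD206, was at 1182 to 2940 CPM (counts scaled to library size, normalized by the trimmed mean of M values, TMM). Microglia genes were also present in all 6 libraries, P2ry12 at 833 to 3322 CPM. Aged replicate 3 stood apart in blood transcripts, its 9 neutrophil genes summing to 23.7 CPM against 7548 to 37349 CPM in the other libraries. The 5 erythroid genes summed to 13792, 10100 and 30268 CPM in the young and 9862, 9075 and 85.8 CPM in the aged libraries. The erythroid sum was above that of the border macrophage markers given below in young replicate 3 and aged replicate 2. The neutrophil sum was above it in young replicate 1 and aged replicate 1. The part of blood transcripts in the CPM differences was not tested. Choroid plexus epithelium genes summed to 10680 CPM in young replicate 3 and 7507 CPM in aged replicate 3, and to at most 1314 CPM in the rest. Across the genes later tested, log2 CPM correlated at r = 0.589 to 0.688 between libraries of the same age. Between libraries of different ages it was 0.570 to 0.659, so replicates were little more alike than the ages. Genes with at least 5 counts numbered from 9866 in aged replicate 3 to 12523 in aged replicate 2. In sorted bulk samples, fewer cells of a type and less RNA per cell cannot be told apart.

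C1qa, C1qb and C3ar1 had all aged libraries above all young ones, C1qc, C4b and C5ar1 had higher aged means with overlapping groups, and C3, Cfb and Cfp were low and scattered at both ages. None of these differences passed the test across all genes. At an adjusted p under 0.05 in edgeR's quasi-likelihood test, 0 of the 8 complement genes tested were called higher, where 0.00938% of the 10661 genes tested were called higher, and 0 were called lower, where 0% were. Cfb was left out of that test by the filter on low counts. At an unadjusted p under 0.05, C1qa, C1qb, C1qc and C3ar1 were higher, 4 of the 8 against 3.63% of all genes tested, and 0 were lower against 2.04%. In each aged library C1qa, C1qb and C3ar1 exceeded every young library, 3 of the 8 against 7.54% of all genes tested, and 0 lay below against 7.19%. The fitted value was above 0 in 7 of the 8, against 49.3% of all genes tested. The calls changed with the method: DESeq2's Wald test called 1 of the genes higher (C1qa, adjusted p = 0.0165), where it called 1.15% higher and 0.417% lower of the 9831 genes to which it gave an adjusted p. edgeR without the filter on low counts called 3 higher (C1qa, C1qb and C1qc, adjusted p = 1.48e-06, 0.00121 and 0.0294), against 0.225% higher and 0.0485% lower. With a minimum mean of 50 CPM, which 6 of the genes reached, edgeR called 0 of them higher or lower, against 0.871% and 0.275%. Of those 6, 3 were above every young library in each aged library, against 11.2%, and 0 below, against 8.43%. The genes were chosen with earlier results of these libraries known, so these shares describe the list and support nothing further.

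**Figure D1:**
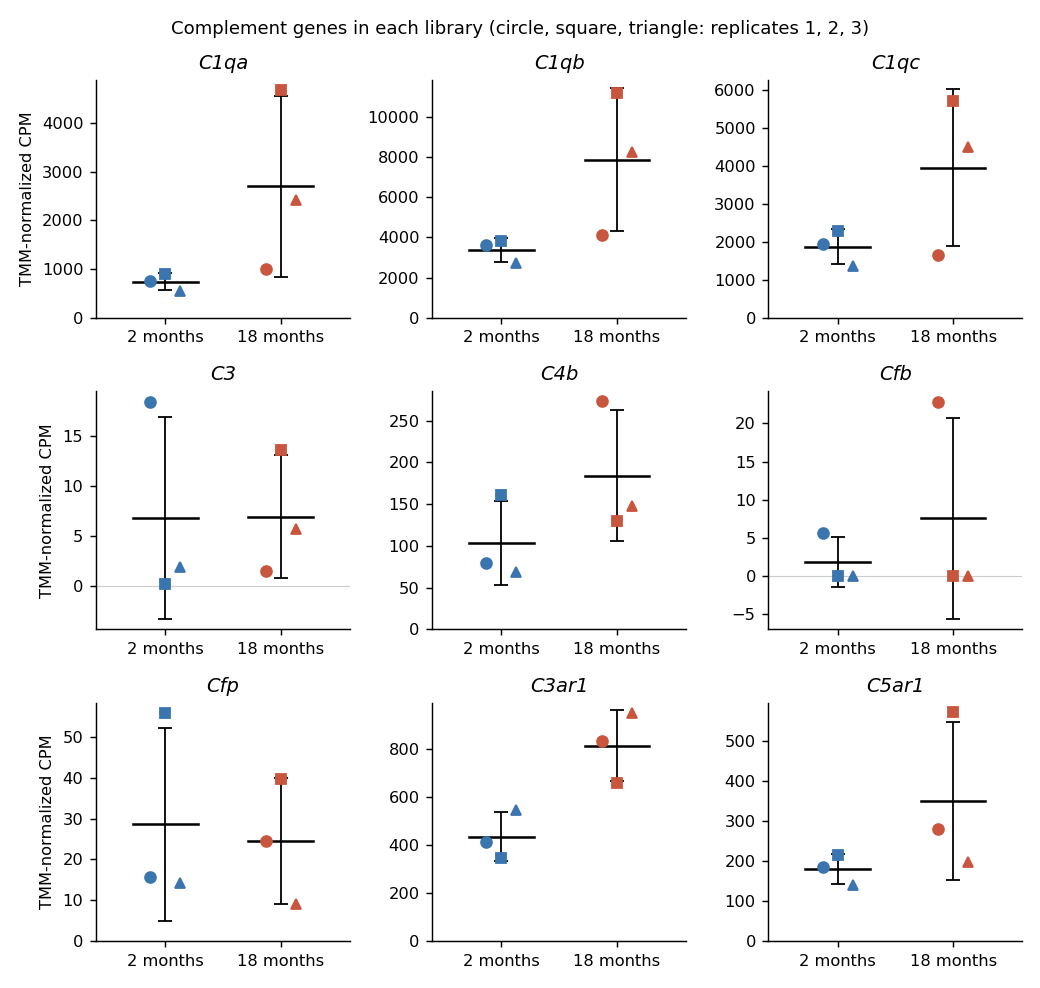
TMM-normalized CPM of the 9 complement genes in the 3 young (blue) and 3 aged (red) libraries, each panel on its own linear axis, with the mean (line) and SD (bar) of each group. C1qa, C1qb and C3ar1 do not overlap between ages, while C3, Cfb and Cfp scatter across both, with Cfb at 0 in 4 libraries.

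C1qa, the A chain gene, was at 764, 899 and 550 CPM in the young libraries and at 994, 4680 and 2420 CPM in the aged ones. The aged libraries were all above the young ones, but aged replicate 1 exceeded the highest young library by little, and replicate 2 was far above both other aged libraries. The means were 738 ± 176 and 2698 ± 1858 CPM (SD, n = 3 each), a log2 fold change of 1.87 (SE 0.51, edgeR adjusted p = 0.619). Without aged replicate 2 the log2 fold change was 1.21.

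C1qb, the B chain gene, was at 3608, 3816 and 2706 CPM in the young and at 4106, 11191 and 8276 CPM in the aged libraries. The order of the libraries was the same as for C1qa, and the groups again did not overlap. The means were 3376 ± 590 and 7858 ± 3561 CPM (SD, n = 3 each), with a log2 fold change of 1.22 (SE 0.38, edgeR adjusted p = 0.645).

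C1qc, the C chain gene, was at 1956, 2286 and 1379 CPM in the young and at 1667, 5729 and 4497 CPM in the aged libraries. Here the groups overlapped, because aged replicate 1 lay between young replicates 3 and 1. The log2 fold change was 1.08 (SE 0.44, edgeR adjusted p = 0.814), and 0.72 without aged replicate 2.

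The C1q genes ranked high among all genes by TPM (a level per transcript length, scaled to the same total in each library). C1qb held rank 75, 86 and 121 in the young libraries and rank 78, 17 and 27 in the aged ones. C1qa, the lowest of the chains in every library but one, went from rank 330, 293 and 443 to rank 278, 36 and 112. In aged replicate 2, C1qa and C1qc held ranks 36 and 37.

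The C1q genes lie side by side on the minus strand of chromosome 4 (mm10, the build of GENCODE M21). C1qb (ENSMUSG00000036905.8) spans 136880129 to 136886187, C1qc (ENSMUSG00000036896.5) 136889804 to 136893065 and C1qa (ENSMUSG00000036887.5) 136895917 to 136898803. The whole cluster covers 18675 bases, with 3616 bases between C1qb and C1qc and 2851 between C1qc and C1qa. No other annotated gene overlaps them, so reads from an opposite strand, which this library kit does not mark, add no known gene to their counts.

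Each C1q chain carries a collagen-like stretch in which glycine recurs at every 3rd residue, the part that winds the A, B and C chains together. In the coding sequence this shows as a codon starting with GG at every 3rd place. The longest unbroken run was 16 such repeats in C1qa, 29 in C1qb and 16 in C1qc, in coding sequences of 245, 253 and 246 codons. The first 10 repeats of each run are shown because the chains share this feature, with the GG codon of each repeat in capitals (coding bases 184 to 273 of C1qa, 91 to 180 of C1qb and 202 to 291 of C1qc, from the GENCODE transcripts, 5′ to 3′).
C1qa: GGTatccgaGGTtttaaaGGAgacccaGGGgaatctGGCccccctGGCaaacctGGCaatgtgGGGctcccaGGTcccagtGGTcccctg
C1qb: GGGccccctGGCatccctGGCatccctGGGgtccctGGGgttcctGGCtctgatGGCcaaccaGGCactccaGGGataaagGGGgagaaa
C1qc: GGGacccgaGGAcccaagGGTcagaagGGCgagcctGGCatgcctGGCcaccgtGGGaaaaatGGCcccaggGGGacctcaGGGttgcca

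The chain genes varied together across libraries. Over the 6 libraries, log2 CPM correlated at r = 0.995 between C1qa and C1qb, 0.964 between C1qa and C1qc and 0.973 between C1qb and C1qc. These are descriptions over libraries whose cell type markers differed, and the part of cell makeup in them was not tested.

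Their proportions differed between the ages. C1qa made up 13.2%, 14.0% and 13.0% of the summed C1q TPM in the young libraries and 16.0%, 23.6% and 17.5% in the aged ones, means of 13.4 ± 0.56% and 19.0 ± 4.05% (SD, n = 3 each). Every aged library was above every young one, also on the CPM scale. The C1qc share was 28.4%, 29.9% and 27.1% in young and 22.1%, 23.4% and 26.6% in aged libraries, each aged library below each young one. That gap was narrow, and on the CPM scale young replicate 3 was at 29.7% and aged replicate 3 at 29.6%. C1qb kept the largest share in every library, 56.0% to 60.0% in young and 53.0% to 61.9% in aged libraries, with overlap. For each C1qa transcript there were 2.15, 2.13 and 2.09 of C1qc in the young libraries and 1.38, 0.99 and 1.52 in the aged ones. A share within a library does not depend on the scaling between libraries. No test was run on the shares, which are built from the chosen genes.

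**Figure D2:**
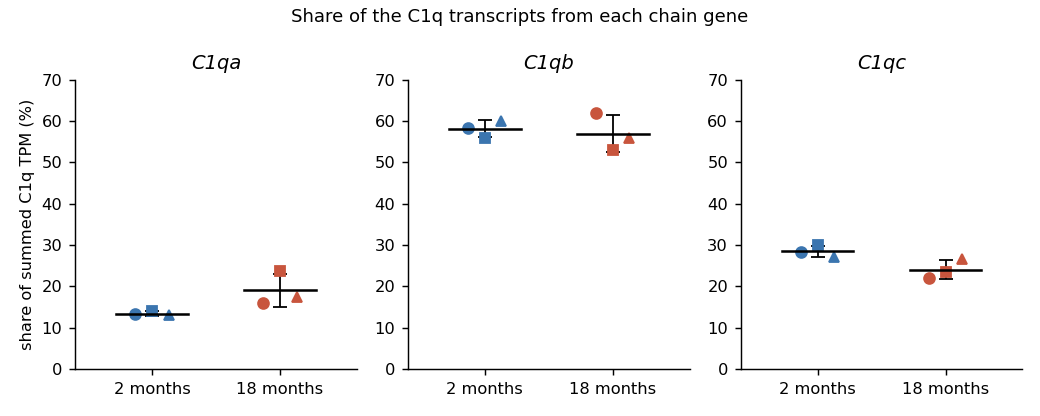
Share of the summed C1q TPM from C1qa, C1qb and C1qc (percent, axes from 0) in 3 young (blue) and 3 aged (red) libraries, with the mean (line) and SD (bar). The C1qa share runs from 16.0% to 23.6% in aged and from 13.0% to 14.0% in young libraries, the C1qc share is lower in aged libraries, and the C1qb shares overlap.

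Summed marker genes of macrophage types differed along with C1q. The C1q genes together reached 6328, 7001 and 4634 CPM in the young and 6767, 21600 and 15193 CPM in the aged libraries, where aged replicate 1 lay below young replicate 2. The 11 microglia markers together were at 6601, 5046 and 7496 CPM in the young libraries, against 9241, 13765 and 11851 CPM in the aged ones, and for 8 of the 11 the lowest aged library exceeded the highest young library, against 7.54% of all genes tested. The marker with the highest mean, Gpr34, a receptor of microglia, was at 1770, 1171 and 2823 CPM in the young libraries, against 2260, 1962 and 3317 CPM in the aged ones, with overlap. The 11 border macrophage markers took 27481, 29896 and 26204 CPM together in the young libraries, against 18205, 8458 and 14741 CPM in the aged ones, with 6 of the 11 lower in each aged library, against 7.19% of all genes tested. No marker of either list was at 0 in any library. Aged replicate 2 had the highest C1q and microglia sums and the lowest border macrophage sum. The part of these cell types in the C1q levels was not tested.

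**Figure D3:**
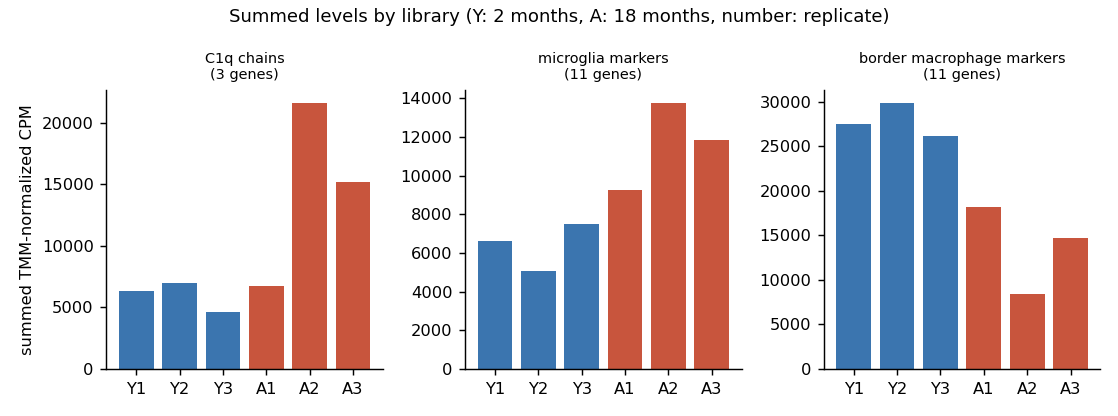
Summed TMM-normalized CPM (bars from 0) of the C1q genes, 11 microglia markers and 11 border macrophage markers in each library, young blue and aged red. Aged replicates 2 and 3 have the highest C1q sums (21600 and 15193 CPM) and the highest microglia sums, and the lowest border macrophage sums.

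Above a minimum mean of 50 CPM, 2183 genes were compared, and the 5 whose log2 CPM followed the mean of the C1q chains most closely over the 6 libraries were Cd68 (r = 0.994), Syngr2 (0.994), Rhog (0.982), Pfn1 (0.981) and Ctsz (0.980). Cd68, a lysosomal glycoprotein of macrophages, was at 726, 822 and 633 CPM in the young and at 855, 1608 and 1272 CPM in the aged libraries. Ctsz, a cathepsin, was at 411, 379 and 298 CPM and at 499, 1159 and 929 CPM. Like C1qb, both were higher in every aged library than in any young one, with replicate 2 highest. Syngr2, Rhog and Pfn1 overlapped between ages, aged replicate 1 lying below young replicate 2. All were picked for their likeness to C1q in these same libraries, so a shared pattern follows from the choice.

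RefSeq promoter windows (GRCm38.p6, 250 bases before to 50 after the start of the gene) matched 6 of the 9 genes by symbol: C1qb, C1qc, C3, Cfp, C3ar1 and C5ar1. They were searched on both strands for 5 motifs: GAGGAA, a core of sites for the myeloid factor PU.1; TTGCNNAA, for C/EBP factors; the interferon-stimulated response element (ISRE); CACGTG, the E-box; and TGCTGA, a site for Maf factors. GAGGAA or its reverse complement was in 3 of the 6 windows (C1qb, C1qc and Cfp), against 28.3% of all 32851 windows of the same length. The Maf site was in 4 of the 6 (C1qb, C3, C3ar1 and C5ar1), against 19.5%. The C/EBP motif was in 1 (C3), against 10.8%, and the other motifs were in 0 of the 6, against 3.44% for the ISRE and 7.15% for the E-box. A match is a description of the letters and no evidence of binding. The windows of C1qb and C1qc, which varied together, and of C3ar1, the receptor gene without overlap between ages, are shown 5′ to 3′ on the gene's (minus) strand, with matches to GAGGAA and TGCTGA on either strand in capitals. C1qb is chr4:136886151-136886450, C1qc chr4:136892865-136893164 and C3ar1 chr6:122856108-122856407.
C1qb: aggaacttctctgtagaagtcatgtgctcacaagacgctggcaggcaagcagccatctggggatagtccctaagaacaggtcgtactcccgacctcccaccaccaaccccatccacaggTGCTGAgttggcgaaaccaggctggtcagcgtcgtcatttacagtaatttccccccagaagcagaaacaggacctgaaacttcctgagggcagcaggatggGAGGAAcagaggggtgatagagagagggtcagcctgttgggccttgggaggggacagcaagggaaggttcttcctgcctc
C1qc: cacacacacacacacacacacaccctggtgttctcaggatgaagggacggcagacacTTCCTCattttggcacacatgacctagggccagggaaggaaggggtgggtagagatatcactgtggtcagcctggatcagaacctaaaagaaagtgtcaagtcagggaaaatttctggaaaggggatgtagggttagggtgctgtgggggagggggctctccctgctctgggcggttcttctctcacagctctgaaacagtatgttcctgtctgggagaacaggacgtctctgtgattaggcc
C3ar1: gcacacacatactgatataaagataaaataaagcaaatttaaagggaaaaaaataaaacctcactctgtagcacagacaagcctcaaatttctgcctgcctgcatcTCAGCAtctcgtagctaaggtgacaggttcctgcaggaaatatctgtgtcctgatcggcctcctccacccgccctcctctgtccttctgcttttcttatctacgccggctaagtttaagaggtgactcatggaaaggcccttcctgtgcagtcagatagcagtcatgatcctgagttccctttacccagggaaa
In C1qb the GAGGAA match began 30 bases before the RefSeq start, and in C1qc the reverse complement TTCCTC began 193 bases before the RefSeq start. The RefSeq starts differ from the ends of the GENCODE spans given above, and that of C1qc lies inside its GENCODE span. The 2 motifs did not overlap each other in any window shown.

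C3, the hub component, was low and scattered. It was at 18.4, 0.186 and 1.9 CPM in the young and at 1.49, 13.6 and 5.76 CPM in the aged libraries, from 575, 5, 53, 43, 526 and 163 counts. High and low libraries occurred at both ages. The log2 fold change was 0.03 (SE 1.86, edgeR adjusted p = 0.999), its sign turned with DESeq2 size factors (-0.02), and it ranged from -0.92 without aged replicate 2 to 2.73 without young replicate 1. Scarb2 (r = 0.979), Cd209g (0.967), Rgs19 (0.960), Fam32a (0.919) and Emc7 (0.913) followed C3 most closely in log2 CPM over the 6 libraries. Like C3, these genes were lowest in young replicate 2 and were not separated by age, a likeness that follows from how they were picked. C3 (ENSMUSG00000024164.15) lies on chromosome 17 from 57203970 to 57228136.

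C4b encodes C4, the component cleaved after C1q binds. It was at 79.8, 161 and 68.9 CPM in the young libraries and at 274, 130 and 148 CPM in the aged ones. Young replicate 2 lay above aged replicates 2 and 3, so the groups overlapped. The means were 103 ± 50.5 and 184 ± 78.3 CPM (SD, n = 3 each), with a log2 fold change of 0.83 (SE 0.47, edgeR adjusted p = 0.936). It was 0.44 without aged replicate 1, the highest library, and 1.31 without young replicate 2.

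C4b (ENSMUSG00000073418.4, chromosome 17, 34728380 to 34743882) has a near copy, C4a, 65209 bases away. Of the 100-base windows of the C4b transcript, 16.5% also occur in a C4a transcript, so a part of the reads could be assigned to either gene. The reads assigned to C4a were few, at most 42 counts or 1.46 CPM in any library, and C4b values carry that uncertainty.

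Cfb, the protease component of the alternative pathway, had 176 counts in young replicate 1 and 656 in aged replicate 1 (5.64 and 22.8 CPM) and 0 in the other 4 libraries. A count of 0 allows up to 3 counts, or 0.112 and 0.107 CPM in young replicates 2 and 3 and 0.0777 and 0.106 CPM in aged replicates 2 and 3, for counting error only, since amplified reads are not independent molecules. Detection was thus split within each age, and no fold was computed. Cfb (ENSMUSG00000090231.10, chromosome 17, 34856374 to 34862518) shares its span with Gm20547, an annotated gene on the same strand that also overlaps C2.

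Cfp, properdin, which stabilizes the C3 convertase of the alternative pathway, was at 15.6, 55.8 and 14.3 CPM in the young and at 24.5, 39.8 and 9.15 CPM in the aged libraries. Replicate 2 was the highest library at both ages, and the groups overlapped over most of their range. The log2 fold change was -0.22 (SE 0.92, edgeR adjusted p = 0.997). It turned to 0.71 without young replicate 2, to 0.17 without aged replicate 3 and to 0.05 in limma on log2(TPM + 1). Cfp is also known from neutrophils. Their 9 markers took 37349, 11884 and 14458 CPM together in the young and 21403, 7548 and 23.7 CPM in the aged libraries. Aged replicate 3 was lowest in both Cfp and the neutrophil sum, while young replicate 1 was highest in the sum but not in Cfp. Neutrophil transcripts were present although the CD206 gate should leave these cells out, and their part in Cfp was not tested. Cfp (ENSMUSG00000001128.7) lies on chromosome X from 20925454 to 20931555.

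C3ar1, the receptor for C3a, was the most even of the higher genes. It was at 411, 345 and 547 CPM in the young libraries and at 832, 657 and 951 CPM in the aged ones. Each aged library lay above each young one, and aged replicate 2, which was highest for the C1q genes, was the lowest aged library here in CPM but the highest in TPM. The SD was 103 CPM among the young and 148 CPM among the aged libraries (n = 3 each). The log2 fold change was 0.91 (SE 0.31, edgeR adjusted p = 0.707), a 1.87-fold difference. Leaving out any 1 library gave 0.77 to 1.11. Microglia express this receptor too, and the summed microglia markers were likewise higher in each aged library, with replicate 2 highest. Their part in C3ar1 was not tested. In TPM the C3ar1 groups were also apart, at 35.4 to 56.3 in young and 86.1 to 108 in aged libraries. C3ar1 (ENSMUSG00000040552.8) lies on chromosome 6 from 122847138 to 122856161, with no overlapping gene.

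C5ar1, the receptor for C5a, was at 185, 215 and 140 CPM in the young libraries and at 281, 574 and 197 CPM in the aged ones. Aged replicate 3 lay between young libraries and aged replicate 2 stood far above the rest, so the groups overlapped on this scale. In TPM they did not: the young libraries were at 32.3, 39.6 and 25.6 and the aged ones at 67, 237 and 44.3. The log2 fold change was 0.96 (SE 0.43, edgeR adjusted p = 0.883) and 0.42 without aged replicate 2. C5ar1 (ENSMUSG00000049130.6) lies on chromosome 7 from 16246743 to 16259540. Neutrophils carry this receptor too, and aged replicate 3, with almost no neutrophil transcripts, was the lowest aged library, although aged replicate 2, with the lower neutrophil sum of the other aged libraries, was the highest. Neutrophil transcripts were present although the gate should leave these cells out, and their part in C5ar1 was not tested.

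**Figure D4:**
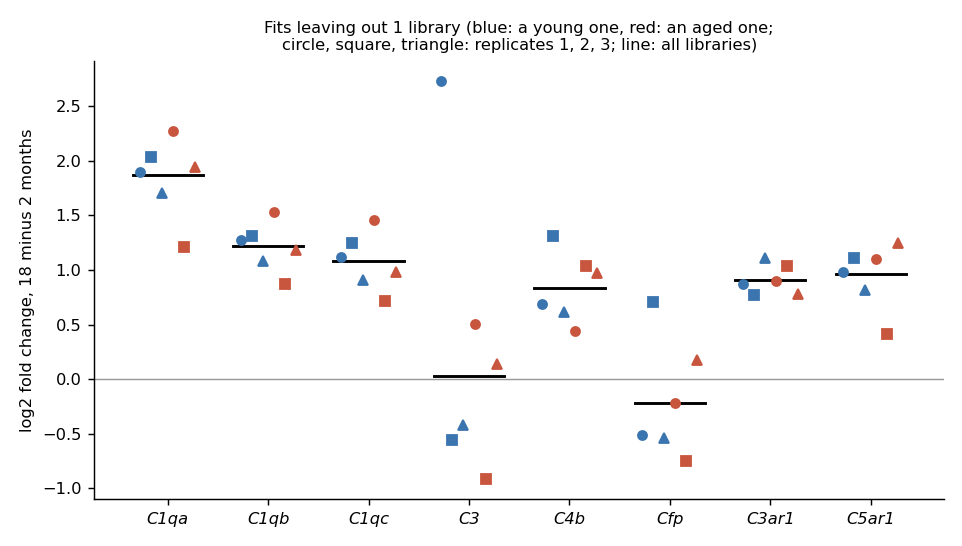
Log2 fold change (aged minus young, edgeR) of the 8 tested complement genes with all libraries (line) and with 1 library left out (blue: a young one, red: an aged one, shape: replicate). C3ar1 stays between 0.77 and 1.11, C1qa falls to 1.21 without aged replicate 2, and C3 and Cfp lie on both sides of 0.

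Compared per length, the levels differed widely between genes. The TPM means were 377 ± 92.5 in young and 1880 ± 1733 in aged libraries for C1qa, 1618 ± 290 and 4905 ± 3357 for C1qb, and 801 ± 204 and 2156 ± 1545 for C1qc (SD, n = 3 each). C4b was at 60.4 ± 26.5 and 104 ± 36.6, C3ar1 at 43.7 ± 11.1 and 98.6 ± 11.3, and C5ar1 at 32.5 ± 7.02 and 116 ± 105 TPM (SD, n = 3 each). Cfp, at 9.22 ± 7.65 and 10.1 ± 8.69, C3, at 1.65 ± 1.75 and 2.57 ± 0.931, and Cfb, at 1.04 ± 1.8 and 4.28 ± 7.42 TPM (SD, n = 3 each), were the lowest. In the young libraries the order C1qb, C1qc, C1qa and then the rest held in each library. C4b, C3ar1 and C5ar1 did not keep an order among themselves.

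The rest of the complement system was represented by 38 other genes, of which 16 passed the filter on low counts and 9 had no count in any library. Of the 16, edgeR called 0 higher and 0 lower at an adjusted p under 0.05, against 0.00938% and 0% of all genes tested. At an unadjusted p under 0.05, 0 were higher and 0 lower, against 3.63% and 2.04%. In CPM, each aged library exceeded each young one in 0 of the 16, against 7.54% of all genes tested. In 2 (C2 and Cd55) each aged library lay below in CPM, against 7.19%, so these counts are near the background. The median log2 fold change was 0.20 over these 16, 0.93 over the 8 tested genes above and -0.02 over all 10661 genes tested.

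Among the regulators, Cd55, which speeds the decay of convertases at the cell surface, was at 69.4, 32.9 and 44.2 CPM in the young and at 19, 29.6 and 23 CPM in the aged libraries (log2 fold change -1.03, SE 0.64, edgeR adjusted p = 0.95). In TPM its groups overlapped, and limma on log2(TPM + 1) gave -0.56. Cr1l, the rodent membrane regulator Crry, was at 152 ± 26.2 and 195 ± 88.8 CPM (SD, n = 3 each), with overlap. Clu, clusterin, was at 33.8 ± 18.8 and 58.1 ± 65.2 CPM (SD, n = 3 each), and Cd59a, an inhibitor of the membrane attack complex, was at 73.8 CPM in young replicate 3 and at most 10.7 CPM elsewhere. Both had their highest value in a library with high choroid plexus transcripts. Aged replicate 3, where Clu was highest, also had the highest sums of astrocyte and oligodendrocyte genes, 251 and 420 CPM. The part of these cell types, which the gate on CD45, CD11b and CD206 should leave out, was not tested.

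Among the other initiators, C2, which joins C4 in the classical C3 convertase, was at 34.9, 59.7 and 28.7 CPM in the young and at 13.6, 25.2 and 7.71 CPM in the aged libraries. Its log2 fold change was -1.41 (SE 0.80, edgeR adjusted p = 0.936), and in TPM the groups overlapped. C2 overlaps Zbtb12 on the opposite strand, and the library kit does not mark strand, so Zbtb12 reads could be counted in C2. Zbtb12 itself did not pass the filter on low counts. Fcna, ficolin A of the lectin pathway, was at 18.5, 41.5 and 24 CPM in the young and at 0.834, 20.5 and 2.47 CPM in the aged libraries (log2 fold change -1.82, SE 1.30, edgeR adjusted p = 0.974). Its log2 fold change was -4.08 without aged replicate 2. Cfd, C1s1, Mbl2, Masp2 and Colec11 had no count in any library, and neither did the regulators Serping1, the C1 inhibitor, and C4bp, nor the terminal components C7 and C8b. None of the 7 terminal components passed the filter, and the highest count of any of them in a library was 106.

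Of the other receptors, Itgam and Itgb2, which together form complement receptor CR3, were at 82.9 ± 15.2 and 81.7 ± 22.1 CPM and at 62.3 ± 32.5 and 96.4 ± 30.4 CPM (SD, n = 3 each). Itgam encodes the CD11b of the sort gate. C5ar2, the other C5a receptor, was at 28.2 ± 15 and 29.2 ± 7.45 CPM (SD, n = 3 each). Vsig4, the macrophage receptor for C3 fragments, had 0 counts in young replicates 2 and 3 and was at 26.6 CPM in young replicate 1 and at 17.9, 6.79 and 30.3 CPM in the aged libraries. Its fitted log2 fold change of 1.05 rests on young replicate 1, without which every young library is at 0 and the fit gives 12.11, which is no bound. Cd93, at 70.4 ± 16.7 and 120 ± 52.8 CPM, and C1qbp, a C1q-binding mitochondrial protein, at 14.7 ± 6.5 and 27.1 ± 22.9 CPM (SD, n = 3 each), also overlapped between ages on this scale. In TPM the Cd93 groups did not overlap, at 3.19, 4.74 and 5.49 in young and 11.6, 7.89 and 6.81 in aged libraries.

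**Figure D5:**
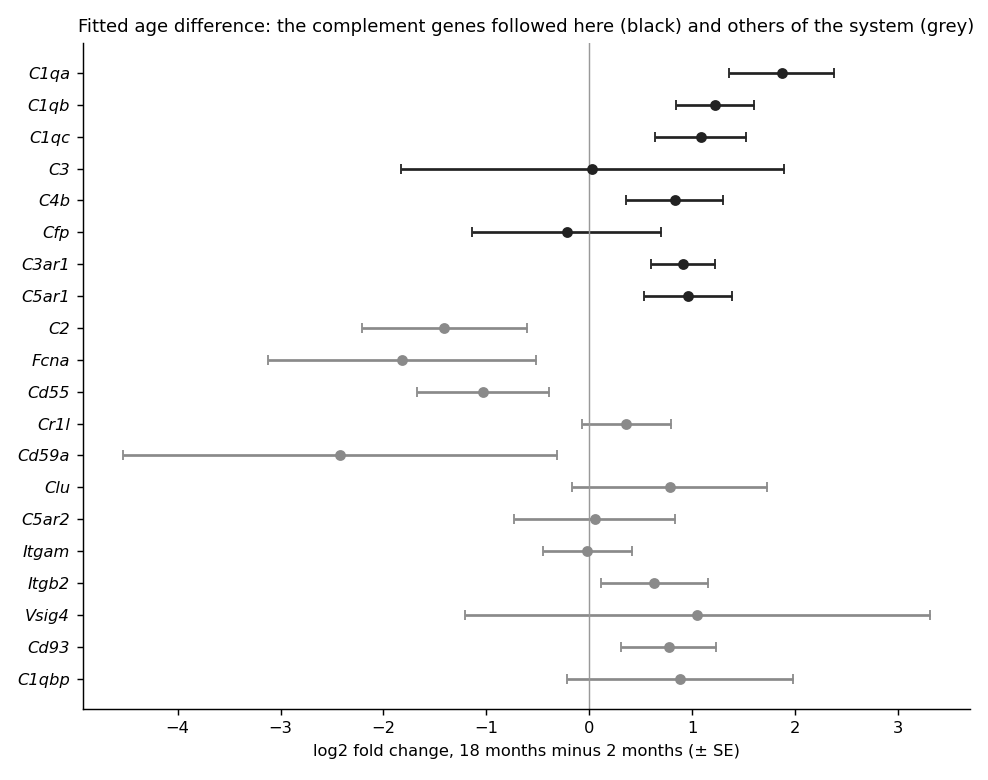
Fitted log2 fold change (aged minus young) with SE from edgeR for the 8 tested complement genes followed here (black) and the 12 others averaging at least 10 CPM (grey). C1qa has the largest value of the black points (1.87, SE 0.51), Cd59a, Fcna, C2 and Cd55 have the lowest values, and C3, Cd59a and Vsig4 have the widest bars. The Vsig4 value rests on young replicate 1.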

How the data were processed

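RNA-seq libraries were made, per the labels' protocols, with a low-input template-switching kit that does not mark strand, and sequenced as single reads. Per the submitters' processing notes, the tools were bcl2fastq 2.20, DRAGEN, fastp, FastQC and Picard and the build mm10. What each did, and which annotation was counted, is not given in the sources used here. The deposited tables hold, per the file headers, estimated counts of reads per gene (90.2% to 92.9% whole numbers) and TPM, scaled by the authors. Estimated counts were rounded here. Of 35598 identifiers, 35513 matched GENCODE M21.

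Aged and young libraries were compared over the whole table with edgeR 4.0.16 (R 4.3.3): filterByExpr, TMM, robust quasi-likelihood F test, no covariate, Benjamini-Hochberg adjustment over 10661 genes, two-sided, called under 0.05. Each SE was computed as the size of the log2 fold change divided by the root of F. The script was tested on simulated data. Levels are TMM-normalized CPM for 1 gene across libraries and TPM between genes. Correlations used log2 CPM with a prior count of 2. Named genes were the 9 complement genes, the other complement genes averaging at least 10 CPM and the 5 genes most like the C1q mean and C3. Of the lists of other complement genes and cell type markers, 2 genes are not reported here and were left out of list counts and sums. Genes given for being at 0 were chosen after their values were seen. The members, lists and settings were chosen with earlier results of these data known. Alternatives were DESeq2 1.42.0, limma 3.58.1, other scalings and filters, a replicate block and leaving out each library. Promoters came from RefSeq (GRCm38.p6), and no protein sequence was used here.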

Additional observations from a re-analysis of the deposited data

How the results depend on the processing

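Of the 9 complement genes, 0 were called higher in all settings except DESeq2's Wald test (1, C1qa, adjusted p = 0.0165, against 1.15% of 9831 genes) and edgeR with no low-count filter (3, C1qa, C1qb and C1qc, adjusted p from 1.48e-06 to 0.0294, against 0.225%). None was called lower in any setting run. Adjusted p over the 15 alternatives was at most 0.914 for C1qa and C1qb and 0.952 for C1qc. Over the whole table, 1 gene was called higher and 0 lower in edgeR. DESeq2 gave 113 and 41, no filter 51 and 11, a minimum mean of 50 CPM 19 and 6, and limma-voom 0 and 0, with 936 genes under 0.05 before adjustment. Leaving out 1 library gave 0 to 2 higher and 0 to 1 lower. C1qa, C1qb, C1qc, C4b, C3ar1 and C5ar1 kept their direction in all 15 alternatives.

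C3 turned to -0.0172 with DESeq2 size factors and in DESeq2, and ranged from -0.92 to 2.73 when a library was left out. Cfp turned to 0.0495 on log2(TPM + 1) and ranged from -0.75 to 0.71 over left-out libraries. Itgam turned to 0.572 on log2(TPM + 1), 0.0085 with no filter and 0.0552 above a mean of 50 CPM, with -0.24 to 0.15 over left-out libraries, and C5ar2 to -0.0033 with upper quartile scaling, with -0.33 to 0.33. Left-out libraries gave -3.84 to 1.73 for Cd59a, -0.67 to 1.32 for Clu, -4.08 to -1.28 for Fcna and 0.46 to 12.11 for Vsig4, which was 8.16 with the replicate block and 6.07 in limma-voom. The cause was not tested. The log2(TPM + 1) scale moved the median of all genes to 0.22, from -0.02. On the CPM scale the young share of C1qa was 12.3%, and C1qc made up 31.1% in young and 26.9% in aged libraries.

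With a replicate block, 1 gene was called higher, 0 lower and 0 of the complement genes, with C1qa at 1.65 (adjusted p = 0.914). The labels do not say that replicate numbers pair libraries, so the numbers were not treated as pairs. Deviations of same-numbered libraries from their group means correlated at -0.010, -0.026 and 0.022, and those of differently numbered ones at -0.023 to 0.032. With 3 libraries per group, these values cannot decide whether libraries were paired. C3 and Cfb ranged within a group from 5 to 575 and from 0 to 656 counts in libraries of similar depth.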
